A study of Mus musculus with 6 samples.

Results

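The Ms4a genes encode small tetraspan proteins of the cell membrane, and 8 of them are described here in macrophages from Lewis lung carcinoma (LLC) tumors of mice. The members were taken by name, as Ms4a1, Ms4a4b, Ms4a4c, Ms4a6b, Ms4a6c, Ms4a6d, Ms4a7 and Ms4a8a, which are 8 of the 22377 genes in the count table and 8 of its 16 Ms4a genes. All 8 passed the filter on low counts. The study asked how loss of nucleophosmin (NPM1), a nucleolar protein that also acts with transcription factors, changes tumor-associated macrophages (TAMs). RNA was sequenced from 3 libraries labelled wt and 3 labelled ko, each given as a separate biological sample. According to the methods of the study, the wt mice were Npm1+/+ and the others Npm1+/-, a whole-body heterozygous loss and not a complete knockout. The label of the ko libraries also reads knockdown. Per the same methods and not the labels, mice of both sexes aged 6 to 8 weeks received LLC cells, a mouse lung carcinoma line, under the skin, and tumors were taken 2 weeks later. Sex and age of the mouse behind each library are not given in the sources used here. The methods give CD45+ CD11b+ F4/80+ sorted macrophages as the material, whereas the labels give tumor tissue. The methods also name a column kit for RNA and a cDNA kit for low input, whereas the labels describe TRIzol and a library enriched for small RNA, which would change what the counts of mRNA measure. These differences were not resolved here. A figure legend of the study gives fewer individual mice for these data than there are libraries per group. Libraries of a group may therefore share an animal, and the SDs and p-values then measure the spread between libraries, which may be technical in part.

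Ms4a proteins are best known from leukocytes. CD20, the product of Ms4a1, is the surface protein of B cells that is bound by therapeutic antibodies. Several others belong to monocytes and macrophages, and their products associate with other receptors at the membrane. In mouse the genes form a cluster on chromosome 19, which expanded by duplication, so that the Ms4a4 and the Ms4a6 genes lie beside close relatives.

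In the GENCODE annotation of GRCm38, 19 Ms4a genes lay between 10962293 and 11640851 on chromosome 19, a stretch of 679 kb. Ms4a8a stood apart from the other members at 11067471 to 11081102 on the minus strand. Ms4a1 followed at 11249675 to 11266241 and Ms4a7 at 11321039 to 11336146, both on the minus strand. Ms4a4c (11404770 to 11427246), Ms4a4b (11443553 to 11467055), Ms4a6c (11469366 to 11482192) and Ms4a6b (11516512 to 11531256) followed each other on the plus strand. Ms4a6d lay at 11586604 to 11604849 on the minus strand.

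RefSeq promoter windows (GRCm38.p6) were matched for 6 of the 8 members. Within 250 bases before the start, Ms4a4b and Ms4a4c were 76.8% identical, Ms4a6b and Ms4a6c were 62.0% identical, and the 13 other pairs of Ms4a4a, Ms4a4b, Ms4a4c, Ms4a6b, Ms4a6c and Ms4a8a lay between 56.0% and 60.4%. The stretches below are shown because these neighboring pairs have the promoters most alike, and their RNA levels are given below. All are on the plus strand and written 5′ to 3′. Capitals mark runs of at least 15 bases that are identical in the partner. The stretches end shortly before the RefSeq start. GENCODE places the start of Ms4a4c further upstream, so that its stretch lies inside the longer GENCODE gene. The 250-base window of Ms4a6b also lies inside its GENCODE gene, and 106 of these bases are exon of an Ms4a6b transcript.
Ms4a4c, chr19:11407546-11407655: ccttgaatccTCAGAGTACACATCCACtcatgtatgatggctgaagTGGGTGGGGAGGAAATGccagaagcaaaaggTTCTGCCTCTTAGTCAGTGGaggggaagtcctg
Ms4a4b, chr19:11443443-11443552: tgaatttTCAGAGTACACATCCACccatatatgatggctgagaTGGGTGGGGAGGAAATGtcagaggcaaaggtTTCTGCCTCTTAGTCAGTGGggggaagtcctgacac
Ms4a6c, chr19:11469308-11469365: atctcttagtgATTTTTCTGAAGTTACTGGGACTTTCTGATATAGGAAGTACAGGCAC

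The longest run shared by Ms4a4b and Ms4a4c had 20 bases. That shared by Ms4a6b and Ms4a6c had 48 bases, of which 47 are printed, and began 118 bases before the start of Ms4a6b and 49 before that of Ms4a6c. None of these other pairs shared a run of more than 9 bases. The purine box GAGGAA, a motif of the myeloid factor PU.1, was searched on both strands of the 250 bases. It was found 61 bases before the start of Ms4a4c and 64 before that of Ms4a4b, in the other member promoters not at all, and in 23.3% of all 32851 promoters. TGANTCA, an AP-1-type motif, was found before Ms4a8a and in 1 of the 2 windows of Ms4a7, and in 6.75% of all promoters. An ETS-IRF composite motif (0.594% of all promoters), an ISRE-type motif (2.98%), TTCNNNGAA of the STAT type (7.02%) and TTGCNNAA of the C/EBP type (9.56%) were not found in the 7 member windows.

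The total count per library ranged from 36550775 to 38147320, so that 3 counts, the most that a library at 0 could hide, corresponded to at most 0.0846 CPM (counts scaled to the library total, with TMM scaling), for counting error only. Libraries of a group are separate samples per the labels, and by their counts none was a copy of another. Wt replicate 1 stood apart at -108 on the first principal component, which held 68% of the variance, with the other 5 libraries between -4.54 and 52. On this component ko replicate 3, at 11.7, lay nearer to wt replicates 2 and 3 (7.92 and -4.54) than to ko replicates 1 and 2 (41.4 and 52). The pair of libraries most alike in counts was wt replicate 3 and ko replicate 3. Npm1 itself was at 142, 380.2 and 381 CPM in wt replicates 1, 2 and 3 and at 441, 498.5 and 343 CPM in ko replicates 1, 2 and 3. Npm1 mRNA was therefore no lower in ko than in wt (log2 fold change 0.51, standard error 0.36, adjusted p = 0.436 in the quasi-likelihood test of edgeR, with p-values adjusted after Benjamini and Hochberg), and each direction below is that between libraries as labelled. Without wt replicate 1 the log2 fold change of Npm1 was 0.16. Macrophage markers were abundant in each library, with Csf1r, the receptor of the macrophage growth factor CSF1, between 546.9 and 1612 CPM and Itgam, which encodes CD11b, between 1492 and 2975 CPM.

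Of the 8 members, 7 had a lower and 1 a higher estimate in the libraries labelled ko. The median log2 fold change was -0.62, against 0.02 for all 13884 genes tested. In Ms4a4c, Ms4a6b, Ms4a6c, Ms4a6d and Ms4a8a each library labelled ko was below each library labelled wt, which was true of 12.6% of all genes tested. Ko replicate 3 was the ko library nearest to wt in each of these members. In 0 members was each library labelled ko higher, against 13.3% of all genes. None of these differences passed the threshold. edgeR's quasi-likelihood test called 0 of the 8 members and 0 genes (0%) at an adjusted p under 0.05, and DESeq2 called 0 of the 8 members and 0.263% of the 13699 genes with an adjusted p. At an unadjusted p under 0.05, edgeR gave 6 members as lower, against 8.31% of all genes, and 0 members as higher, against 6.9%. The members were chosen with results of these libraries known, so these counts describe the family and are not independent evidence.

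**Figure D1:**
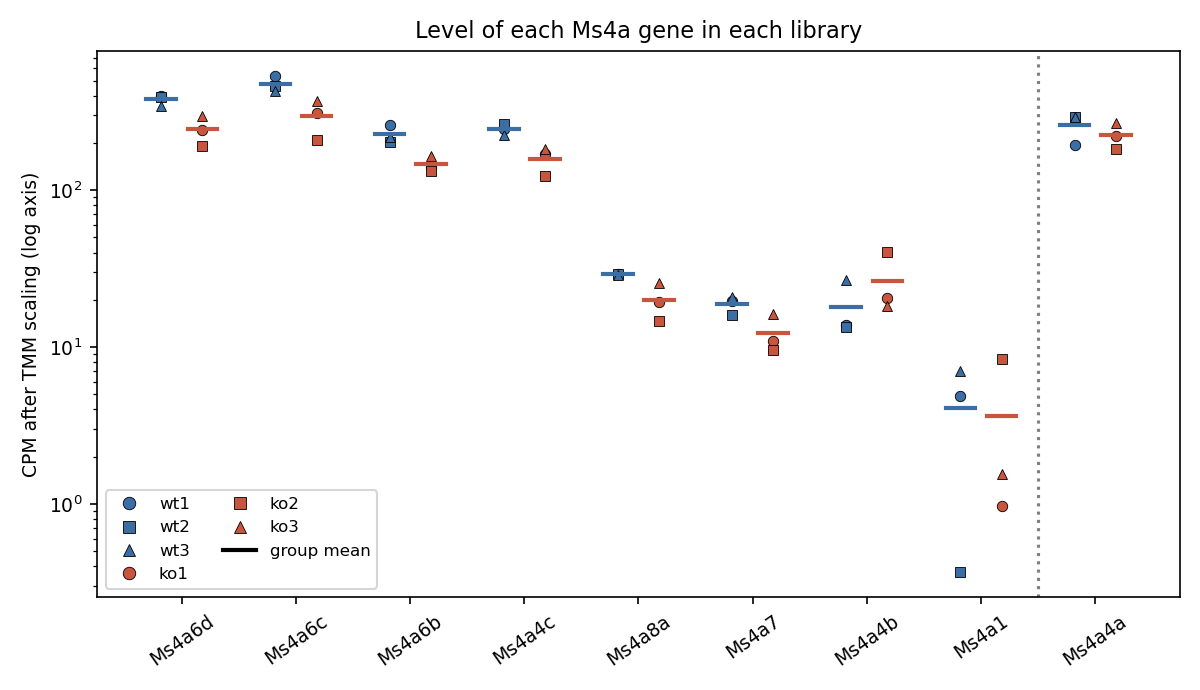
Level of each member, and of Ms4a4a to the right of the dotted line, in each of the 6 libraries, as CPM after TMM scaling on a log axis. Symbols mark the replicate number, blue the libraries labelled wt, red those labelled ko, and horizontal bars the mean of 3 libraries. The red points of Ms4a6d, Ms4a6c, Ms4a6b, Ms4a4c and Ms4a8a lie below all blue points, those of Ms4a7 overlap narrowly, and those of Ms4a4b and Ms4a1 are spread across the blue points.

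Ms4a6b, Ms4a6c and Ms4a6d lie near each other in the cluster. Ms4a6c had 537.9, 464.9 and 429 CPM in wt replicates 1, 2 and 3 and 310.5, 207.4 and 370.4 CPM in ko replicates 1, 2 and 3. The lowest wt library was thus above the highest ko library, and ko replicate 2 was the lowest of all. The means were 477 ± 55.5 CPM (SD, n = 3) and 296 ± 82.4 CPM (SD, n = 3), a difference of 38% (log2 fold change -0.69, standard error 0.22, adjusted p = 0.328, edgeR).
Ms4a6d had 400.1, 395.2 and 341.8 CPM in the wt libraries and 240.4, 192.3 and 298.6 CPM in the ko libraries. Again the groups did not overlap and ko replicate 2 was the lowest. Ms4a6d gave a log2 fold change of -0.64 (standard error 0.18, adjusted p = 0.328, edgeR).
Ms4a6b had 261.1, 201.5 and 216.9 CPM in the wt libraries and 140.3, 132.3 and 166.2 CPM in the ko libraries, with the highest ko library 17.5% below the lowest wt library. Ms4a6b gave a log2 fold change of -0.63 (standard error 0.15, 95% interval -0.98 to -0.28). The adjusted p was 0.328 with edgeR and 0.0998 with DESeq2, the smallest of the members in either test.

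Ms4a4c, a monocyte and macrophage member that is inducible by interferon, had 246.3, 263.2 and 226.3 CPM in wt replicates 1, 2 and 3 and 170.9, 123.3 and 183.4 CPM in ko replicates 1, 2 and 3. Each ko library was below each wt library, and the difference of the means was 35.1% (log2 fold change -0.62, standard error 0.17, adjusted p = 0.328, edgeR). Ms4a8a, described in alternatively activated macrophages, was at nearly the same level in the 3 wt libraries, with 29.02, 29.4 and 28.71 CPM. In the ko libraries it varied more, with 19.41, 14.75 and 25.66 CPM. The SD was 0.345 CPM in wt and 5.47 CPM in ko (log2 fold change -0.54, standard error 0.21, adjusted p = 0.328, edgeR). Ms4a7, a macrophage member of lower level, had 19.51, 16.01 and 20.93 CPM in wt and 10.91, 9.571 and 16.17 CPM in ko. Wt replicate 2 and ko replicate 3 overlapped by a small margin, which disappeared with RLE or upper quartile scaling, under which 6 of the 8 members did not overlap. The share of all genes without overlap was not counted under these scalings. Ms4a7 gave a log2 fold change of -0.62 (standard error 0.23, adjusted p = 0.328, edgeR). For each of the 5 members without overlap, the exact permutation test gave a two-sided p of 0.1, the smallest that 3 against 3 allow, and for Ms4a7 it gave 0.2.

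Ms4a4a, the one other Ms4a gene at a high level, lies between Ms4a7 and Ms4a4c. Its product is found in macrophages and associates with the beta-glucan receptor Dectin-1. Ms4a4a had 193.3, 293.1 and 294.6 CPM in wt replicates 1, 2 and 3 and 223, 183 and 268.2 CPM in ko replicates 1, 2 and 3. The groups overlapped because wt replicate 1, the highest wt library for Ms4a6b, Ms4a6c and Ms4a6d, was the lowest for Ms4a4a. Ms4a4a gave a log2 fold change of -0.21 (standard error 0.21, 95% interval -0.70 to 0.28, adjusted p = 0.562, edgeR). Without wt replicate 1 it was -0.39 (unadjusted p = 0.0537, adjusted p = 0.411, edgeR), and without ko replicate 2 it was -0.09.
The ratio of each of the 6 lower members to Ms4a4a was compared after these values were seen, since a ratio within a library does not depend on scaling. FPKM, which scales counts by gene length and library total, was for Ms4a6d at 218%, 142% and 122% of that of Ms4a4a in wt replicates 1, 2 and 3 and 113%, 111% and 117% in ko replicates 1, 2 and 3. The difference in the mean log2 ratio lay between -0.52 for Ms4a6c and -0.38 for Ms4a8a. These sizes rested on wt replicate 1, without which the difference was -0.23 for Ms4a6c, -0.21 for Ms4a6d, -0.23 for Ms4a4c, -0.18 for Ms4a8a, -0.22 for Ms4a7 and -0.12 for Ms4a6b. In Ms4a6c, Ms4a6d, Ms4a4c and Ms4a8a the groups did not overlap (exact permutation test over 6 libraries, two-sided p = 0.1 each), and in Ms4a6b and Ms4a7 they did (p = 0.2 each). The share of all genes whose ratio to Ms4a4a did not overlap was not counted. Ms4a4a was chosen as the denominator with its levels known, so these ratios are a description and not independent evidence.

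Ms4a4b, a T cell member whose product associates with the costimulatory receptor GITR, was the one member with a higher estimate. It had 13.78, 13.39 and 26.63 CPM in wt replicates 1, 2 and 3 and 20.68, 40.5 and 18.35 CPM in ko replicates 1, 2 and 3. Ko replicate 2 was the highest and wt replicate 3 the next, so the groups overlapped (log2 fold change 0.56, standard error 0.38, 95% interval -0.33 to 1.46, adjusted p = 0.42, edgeR). Without ko replicate 2 the estimate was 0.11, and without wt replicate 3 it was 0.95. Tnfrsf18, which encodes GITR, had 4.92, 5.19 and 9.28 CPM in wt and 11.68, 18.24 and 10.31 CPM in ko, without overlap. Tnfrsf18 gave a log2 fold change of 1.05 (standard error 0.33, unadjusted p = 0.0142, adjusted p = 0.328, edgeR).
Ms4a1 had 4.89, 0.366 and 7 CPM in wt replicates 1, 2 and 3 and 0.967, 8.33 and 1.56 CPM in ko replicates 1, 2 and 3. These values rested on between 13 and 349 counts. Levels above 4 CPM occurred in libraries of both labels, and the log2 fold change of -0.17 (standard error 1.05, 95% interval -2.63 to 2.29, adjusted p = 0.931, edgeR) left a change of several fold in either direction undetectable. The estimate changed sign when wt replicate 3, ko replicate 1 or ko replicate 3 was left out (0.44, 0.27 and 0.18), and was -1.70 without ko replicate 2.

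Per length, the order was Ms4a6d, Ms4a6c, Ms4a6b and Ms4a4c from the highest down in each of the 6 libraries, and Ms4a1 was the lowest in each. FPKM of Ms4a6d was 266 ± 14.99 (SD, n = 3) in wt and 188 ± 25.5 (SD, n = 3) in ko. FPKM of Ms4a6c was 207 ± 19.7 and 141 ± 28.6. Ms4a8a came next except in ko replicate 2, where Ms4a4b was above it, and Ms4a4b ranked above Ms4a7 except in wt replicate 1, where they had an FPKM of 10.2 and 10.6. These neighbors in the order were not separated. Summed over the 8 members, FPKM was 780.2, 715.7 and 709.7 in wt and 531.3, 475 and 584.7 in ko. The makeup of this sum varied little for Ms4a6d, Ms4a6b, Ms4a4c and Ms4a8a, although the sum itself did not overlap between groups. Ms4a6d held between 34.3% and 38.1%, Ms4a6b between 15.6% and 18.9%, Ms4a4c between 10.7% and 12.5% and Ms4a8a between 3.2% and 3.93%. Ms4a6c held between 27.2% and 29.4% in 5 libraries and 22.9% in ko replicate 2, where Ms4a4b reached 7.76% against 1.31% to 3.25% elsewhere.

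**Figure D2:**
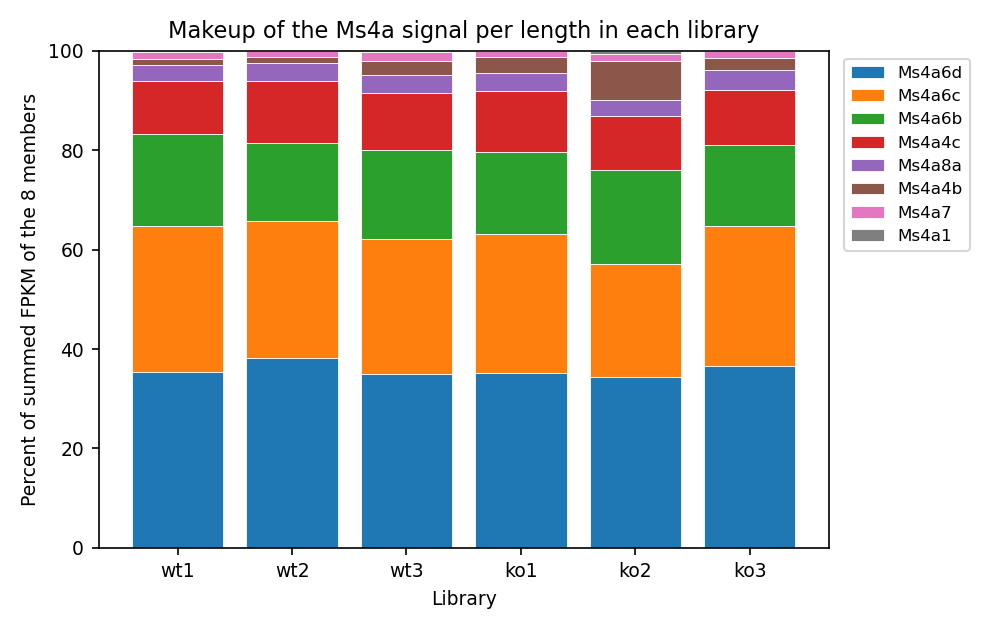
Percent of the summed FPKM of the 8 members held by each member, stacked to 100% in each of the 6 libraries. The 4 largest segments, Ms4a6d, Ms4a6c, Ms4a6b and Ms4a4c, are of like size in the libraries labelled wt and ko, and the segment of Ms4a4b is widest in ko2 at 7.76%.

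The cell type lists gave the setting of these levels. In the macrophage list, each of the 12 genes had a lower estimate in the libraries labelled ko, with a median log2 fold change of -0.55, and the groups of 8 genes did not overlap, against 12.6% of all genes tested. At an unadjusted p under 0.05 there were 7 lower and 0 higher, against 8.31% and 6.9% of all genes, and 0 passed the adjusted threshold. The summed level ranged from 15560 to 21270 CPM in wt and from 9086 to 15530 CPM in ko, and no gene of the list was at 0. Lyz2 was the largest part of this sum in each library, with 14140 CPM in wt replicate 1. Its own groups overlapped, with 9354 CPM in wt replicate 3 and 9698 CPM in ko replicate 3. In the monocyte list, each of the 7 genes had a lower estimate, with a median of -0.69. Ly6c2 and Ccr2, which mark inflammatory monocytes, had log2 fold changes of -0.75 and -0.69 (adjusted p = 0.328 each, edgeR). The summed level of this list was 6074 to 6954 CPM in wt and 3003 to 5453 CPM in ko. The neutrophil list also had a lower estimate in each of its 7 genes (median -0.52), with 1806 to 2018 CPM in wt and 795 to 1579 CPM in ko. The 6 lower Ms4a members, with log2 fold changes between -0.69 and -0.54, therefore lay within the range of these myeloid markers. In these bulk libraries a smaller share of macrophages or monocytes and less RNA per cell cannot be told apart, and the part of cell makeup in the Ms4a differences was not tested.

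In the T cell list, each of the 11 genes found had a higher estimate, with a median of 1.26, and 3 were higher at an unadjusted p under 0.05, against 6.9% of all genes. These 3 were Cd3d, Cd3g and Cd2. Without wt replicate 1 their unadjusted p was 0.0602, 0.0591 and 0.0621 (edgeR). The median of the list was 0.65 without ko replicate 2 and 2.22 without wt replicate 3. None was at 0 in any library. Its summed level was 98.95, 197.9 and 323.2 CPM in wt replicates 1, 2 and 3 and 264.5, 496.2 and 255.4 CPM in ko replicates 1, 2 and 3. The order was that of Ms4a4b, with ko replicate 2 the highest and wt replicate 3 next, except that wt replicates 1 and 2 changed places. The NK cell list (7 of 7 higher, median 1.02) had its highest sum in ko replicate 2 as well, at 158.9 CPM against 34.25 to 64.43 CPM in the other libraries, and without that library its median was 0.25. In the B cell list, 4 of the 10 genes found had a lower and 6 a higher estimate, with a median of 0.14 and none at 0. Without ko replicate 2 this median was -1.06, and without ko replicate 3 it was 0.54. Its summed level was 57.47, 10.26 and 57.48 CPM in wt and 22.15, 88.29 and 20.1 CPM in ko. The sum was lowest in wt replicate 2, where Ms4a1 was at 0.366 CPM, and highest in ko replicate 2, where Ms4a1 was highest. A sort for F4/80+ macrophages would remove most T and B cells, and the part of lymphocyte RNA in the levels of Ms4a4b and Ms4a1 was not tested.

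**Figure D3:**
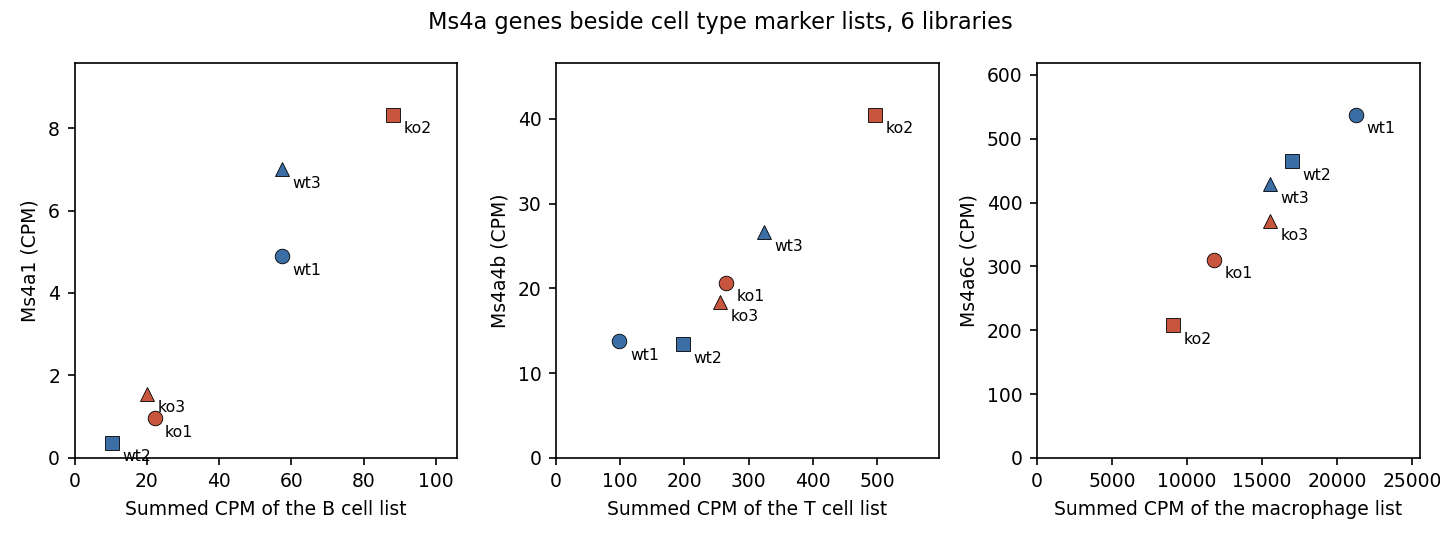
Level of Ms4a1, Ms4a4b and Ms4a6c (CPM, vertical axes) against the summed CPM of the B cell, T cell and macrophage lists (horizontal axes), with 1 point per library and linear axes from 0. Ms4a1 and Ms4a4b are highest in ko2, which also has the highest B cell sum of 88.29 and T cell sum of 496.2, and Ms4a6c is lowest in ko2, which has the lowest macrophage sum of 9086. Lyz2 is the largest part of the macrophage sum in each library.

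The members were also compared with each other over the 6 libraries. Pearson correlations of log2 CPM lay between 0.845 and 0.982 among Ms4a4c, Ms4a6b, Ms4a6c, Ms4a6d, Ms4a7 and Ms4a8a, and those of Ms4a4b with these 6 members lay between -0.842 and -0.548. These values describe 6 points that share the spread between libraries, and the 6 members were grouped after their values were seen. The pair with the most alike promoters, Ms4a4b and Ms4a4c, had a correlation of -0.823. The pair next most alike, Ms4a6b and Ms4a6c, had one of 0.921. Among 8471 genes with a mean log2 CPM of at least 3, those most like Ms4a6d were Lgmn, a lysosomal protease, and Sdc3, a cell surface proteoglycan (r = 0.9991 and 0.9975). Ms4a4c was nearest to Gm30732 and to Ncf1, a subunit of the phagocyte NADPH oxidase (r = 0.9974 and 0.9904). Ms4a6c was nearest to Retnlg, a gene of the neutrophil list, and to I830077J02Rik (0.9983 and 0.9975). Ms4a6b was nearest to Nhsl2 and Exoc7 (0.9973 and 0.9951), Ms4a7 to Med23 and Mob1a (0.9924 and 0.9869) and Ms4a8a to the lectin genes Clec4a1 and Lgals8 (0.9984 each). Ms4a4b was nearest to Rttn and Zbtb1 (0.9904 and 0.982). Ms4a1 was nearest to Zw10, which had only between 13.28 and 19.38 CPM, and to H2-Ob, a class II chaperone of B cells (0.9983 and 0.9888). These genes were picked as the 2 highest of 8471 for each member over 6 libraries, and a relation was not tested.

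The rest of the family was low or overlapped between groups. Ms4a14 had between 1.16 and 4.87 CPM (log2 fold change 0.05, standard error 0.59, adjusted p = 0.967, edgeR). Ms4a20 had at most 16 counts, and Ms4a2, the beta chain of the high-affinity IgE receptor of mast cells, and Ms4a3, a gene of granulocyte and monocyte progenitors, had at most 5 counts each. Ms4a4d, Ms4a15 and Ms4a19 were at or under 2 counts in each library. Tmem176a and Tmem176b, related tetraspan genes outside the cluster, had log2 fold changes of -0.01 (standard error 0.23) and -0.11 (standard error 0.20), and their groups overlapped. Among genes of receptors that Ms4a proteins associate with, Clec7a, which encodes Dectin-1, had a log2 fold change of -0.32 (standard error 0.20, adjusted p = 0.402, edgeR), or -0.12 without ko replicate 2, and Trem2, a lipid receptor of macrophages, one of -0.37 (standard error 0.19, adjusted p = 0.349, edgeR), or -0.23 without ko replicate 2 and -0.57 without ko replicate 3. Fcer1g, the signaling chain of Fc receptors, was lower without overlap, with 586 to 718.5 CPM in wt and 361 to 569 CPM in ko (log2 fold change -0.47, standard error 0.19, adjusted p = 0.328, edgeR). Fcer1a had at most 4 counts.

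**Figure D4:**
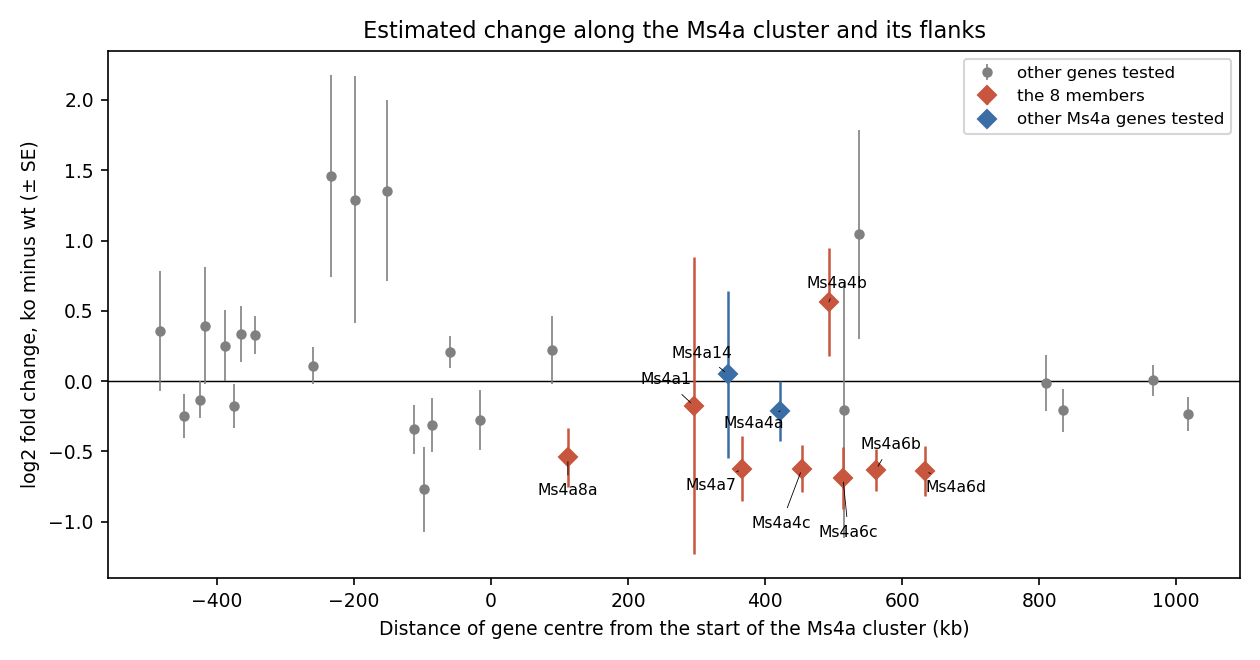
log2 fold change between libraries labelled ko and wt (vertical axis, with standard error bars) against the distance of each gene's centre from the start of the Ms4a cluster in kb (horizontal axis), for the members (red), the other Ms4a genes tested (blue) and the 24 other genes tested within 500 kb (grey). Ms4a4c, Ms4a6b, Ms4a6c, Ms4a6d, Ms4a7 and Ms4a8a lie between -0.69 and -0.54, Ms4a4b lies at 0.56 among them, and the median of the grey genes is 0.06.

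Reads could be shared between relatives. In the GENCODE transcripts, 7.73% of the 50-base windows of Ms4a4c also occurred in Ms4a4b and 5.85% of those of Ms4a6c in Ms4a6b, while Ms4a8a and Ms4a4a shared none with any other gene. Of the windows of Ms4a6c, 51.4% matched another gene on either strand, mostly the overlapping BE692007 on the opposite strand, which had at most 2.19 CPM. Ms4a1, Ms4a4c and Ms4a6b also overlap an annotated gene on the other strand, and the sources used here do not say if strand was used in counting. The levels of the Ms4a4 and Ms4a6 genes are uncertain to this extent.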

How the data were processed

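RNA of 6 libraries, 3 labelled wt and 3 labelled ko, was analysed. The deposited counts are raw whole numbers for each gene. The authors also deposited FPKM, which matched the counts scaled by 1 gene length and the library total within 0.1%. The submitters' processing notes name mm10. The aligner and the counting tool are not given in the sources used here. All measured columns were mapped to a library by title.

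Counts were filtered with filterByExpr, scaled by TMM and compared with edgeR 4.0.16 (glmQLFit and glmQLFTest) in R 4.3.3, with Benjamini-Hochberg adjustment over the 13884 genes tested and a threshold of 0.05. Standard errors were taken from the log2 fold change and the F statistic. log2 CPM used a prior count of 2. DESeq2 1.42.0 and limma 3.58.1, on the log2 of deposited FPKM with 1 or 0.1 added, were alternatives. Scripts were tested on simulated data. The precision is set by 3 libraries per group and, for Ms4a1, by its counts.

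The members and the 14 other gene lists were chosen with earlier results of these data known. Named were all members, the rest of the family, receptors, list markers, and for each member the 2 genes of highest Pearson correlation. Ratios to Ms4a4a, and leaving out each library for these ratios, the lists, Npm1 and the genes outside the members, were added after the values were seen. Promoter windows are from RefSeq and positions from GENCODE, both on GRCm38, and promoters were aligned globally. Other listed Ms4a genes (Ms4a5, Ms4a6e, Ms4a10, Ms4a12, Ms4a13 and Ms4a18) and the list genes Mx1, Ighm, Ighd and Trac were not analysed here.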

Additional observations from a re-analysis of the deposited data

How the results depend on the processing

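Across 15 alternatives (RLE and upper quartile scaling, no filter on low counts, at least 10 counts in every library, DESeq2, limma on log2 FPKM plus 1 or 0.1, the replicate block, each library left out, and DESeq2 without wt replicate 1), 0 members passed the adjusted threshold, and Ms4a4c, Ms4a6b, Ms4a6c, Ms4a6d, Ms4a7 and Ms4a8a stayed below 0 in each. The number of genes called was 36 with DESeq2 and from 0 to 78 with a library left out, the latter with DESeq2 without wt replicate 1, and otherwise 0. The median log2 fold change of the members lay between -0.65 and -0.46, or between -0.76 and -0.49 with a library left out, and the members at an unadjusted p under 0.05 numbered 6, or from 4 (without ko replicate 1 or ko replicate 2) to 6. Members without overlap numbered 5 or 6 in the 10 alternatives for which this was counted (4 with other scalings or FPKM and 6 with a library left out). With a library left out this number could not fall below 5, because dropping a library cannot make separate groups overlap. The 6 values with a library left out therefore do not bear on stability. The share of all genes without overlap was not counted in these alternatives. Ms4a4b stayed above 0, from 0.11 without ko replicate 2 to 0.95 without wt replicate 3. Ms4a1 reversed its direction, to 0.022 by limma with 0.1 added to FPKM, and to 0.44 without wt replicate 3, 0.27 without ko replicate 1 and 0.18 without ko replicate 3, and was at -1.70 without ko replicate 2. The cause was not tested. limma on log2 FPKM plus 0.1 moved the median of all genes from 0.02 to 0.16. Libraries of the same number did not deviate together (correlations of deviations -0.241, 0.06 and -0.337), and with the replicate block 0 genes were called and the members' median was -0.65.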

Other observations

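Genes around the Ms4a cluster had estimates in both directions. Within 500 kb of the cluster or inside it, 24 genes other than Ms4a were tested, of which 11 had a lower and 13 a higher estimate in the libraries labelled ko, and the median was 0.06 on the log2 scale. The groups did not overlap in 1 lower and 3 higher genes, against 12.6% and 13.3% of all genes tested. The most abundant were Slc15a3, an endosomal transporter of peptides, with 589 ± 122 CPM (SD, n = 3) in wt and 464 ± 44.7 CPM in ko (log2 fold change -0.34, standard error 0.17, adjusted p = 0.347, edgeR), Ddb1, a DNA damage binding protein, with a log2 fold change of 0.33 (standard error 0.13, adjusted p = 0.328), and Cpsf7, an mRNA cleavage factor, with -0.13 (standard error 0.13, adjusted p = 0.566). Cd5 and Cd6, T cell surface genes on the Ms4a8a side of the cluster, named after their values were seen, had log2 fold changes of 1.46 and 1.36 (adjusted p = 0.341 and 0.334), with their highest levels in ko replicate 2, as for Ms4a4b.

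Because Ms4a4c is inducible by interferon, the interferon response list was read beside it. All 12 genes found had a lower estimate (median -0.37 on the log2 scale), 5 at an unadjusted p under 0.05, against 8.31% of all genes, and 0 at an adjusted p. Its summed level was 1190, 1877 and 1580 CPM in wt replicates 1, 2 and 3 and 1242, 1099 and 1266 CPM in ko replicates 1, 2 and 3, where wt replicate 1 lay among the ko libraries. For Ms4a4c, wt replicate 1 lay between the other wt libraries. Of the remaining lists, the fibroblast list had 7 of 7 higher estimates (median 1.47, 23.73 to 476.8 CPM summed in wt and 344.7 to 687.5 CPM in ko, with a median of 0.93 without wt replicate 1), the epithelial or carcinoma list had 1 lower and 2 higher among 3 tested (median 0.76, or 0.25 without wt replicate 1), the dendritic cell list 5 lower and 2 higher (median -0.03, or -0.27 without wt replicate 2), and the mast cell or basophil list 1 lower and 1 higher among 2 tested (median -0.42, from -2.22 without ko replicate 2 to 0.14 without ko replicate 1), with at most 2.7 CPM summed.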
